A study of Mus musculus with 6 samples.

Results

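Genes that drive or restrain the hair growth cycle were followed in whole skin of mice with and without Junb in the epidermis. The members are Lef1, Msx2, Foxn1, Shh, Dlx3, Bmp4, Fgf5, Fgf18, Gli1 and Ptch1, taken by symbol from the deposited gene table, so 10 of its 23951 genes. RNA-seq was performed on 3 control mice labelled JunB +/+ and 3 mice labelled JunB dep, all on a C57Bl/6 background, littermates per the design text and 6 to 7 months old. JunB dep stands for deletion of the floxed Junb alleles by a keratin 5-driven Cre, which acts in cells that use this promoter, that is the basal epidermis and the epithelium of the follicle, and not in the dermis. No treatment was given, lesional skin was taken from the mutants, and the study used both sexes. Each library is 1 mouse, so that p-values measure the spread between these mice. Libraries are called control 0, 1 and 2 and dep 0, 1 and 2, after the replicate number in their labels.

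Hair follicles cycle through growth (anagen), regression (catagen) and rest (telogen). In anagen, Wnt signalling through Lef1 and hedgehog signalling from Shh act in the matrix, the dividing cells at the base of the follicle, while Msx2, Foxn1 and Dlx3 are transcription factors needed to build the shaft and its sheath. Bone morphogenetic protein and fibroblast growth factor signals are the better known brakes: Bmp4 counters the activation of follicle stem cells, Fgf5 ends anagen, and Fgf18 holds the resting follicle. A piece of whole skin holds many follicles together with epidermis, dermis, muscle and blood cells, so fewer cells of a type and less RNA per cell cannot be told apart in these values.

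The promoters of Lef1, Msx2, Foxn1 and Fgf18 are shown because the first 3 genes had the same 2 highest libraries and Fgf18 had others. The windows hold the 250 bases before the RefSeq start (table of build GRCm38.p6), printed 5′ to 3′ on the strand of the gene, and each matched the mm9 genome exactly once. For Lef1, the start inside the gene is shown (chr3:130858962-130859211, plus strand), because it was the member window with the letters CTTTGA, the core that TCF/LEF proteins bind. Msx2 lies at chr13:53568150-53568399, Foxn1 at chr11:78200111-78200360 and Fgf18 at chr11:33047401-33047650, all 3 on the minus strand. Capitals mark CTTTGA in Lef1 and CCAAT in Msx2 and Foxn1, on either strand.
Lef1, internal start: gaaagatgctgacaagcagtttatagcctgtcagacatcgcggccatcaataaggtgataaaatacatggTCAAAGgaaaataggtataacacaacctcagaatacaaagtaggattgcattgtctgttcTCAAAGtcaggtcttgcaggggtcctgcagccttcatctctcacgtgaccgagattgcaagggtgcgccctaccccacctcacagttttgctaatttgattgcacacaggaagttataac
Msx2: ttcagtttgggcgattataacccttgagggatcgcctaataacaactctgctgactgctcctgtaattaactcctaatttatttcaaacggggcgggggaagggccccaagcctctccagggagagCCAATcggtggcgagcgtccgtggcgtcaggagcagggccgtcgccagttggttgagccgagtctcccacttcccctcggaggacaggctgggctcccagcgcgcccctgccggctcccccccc
Foxn1: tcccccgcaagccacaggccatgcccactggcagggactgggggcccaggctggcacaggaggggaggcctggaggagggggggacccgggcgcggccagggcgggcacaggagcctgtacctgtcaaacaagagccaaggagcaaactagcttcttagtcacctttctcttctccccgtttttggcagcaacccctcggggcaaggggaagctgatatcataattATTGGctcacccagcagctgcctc
Fgf18: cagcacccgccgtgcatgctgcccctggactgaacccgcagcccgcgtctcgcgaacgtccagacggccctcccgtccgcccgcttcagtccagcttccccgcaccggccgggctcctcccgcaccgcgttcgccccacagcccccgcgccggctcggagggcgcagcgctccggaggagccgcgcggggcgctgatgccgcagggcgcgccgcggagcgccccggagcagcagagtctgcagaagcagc

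CCAAT began 124 bases before the start of Msx2 and 24 bases before that of Foxn1. No capitals stand in the Fgf18 window, which held none of the 4 motifs named here. Over 32851 windows of this length, CCAAT was in 33.8% and CTTTGA in 13.8%, with both strands read. TGANTCA, the letters bound by AP-1, the complex that JunB belongs to, were in 6.75% of all windows and in 0 of the 10 windows of the members. GACCACCCA, the core bound by GLI proteins, was in 0.225% of all windows and in 0 of the 10. The 10 windows came from 7 members, and Shh, Dlx3 and Gli1 were not matched. Several windows were of Lef1, and those at chr3:130812965-130813214 and chr3:130812991-130813240 overlapped. The 10 windows are thus not independent and too few to read anything from the absence of a motif.

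The libraries were checked first. Values are FPKM, fragments scaled to transcript length and to the total of mapped fragments, which allow levels to be compared between genes per length, and the sequencing depth is unknown. Junb stood at 59.3, 72.4 and 56.9 FPKM in the controls and at 42.8 and 28.0 in dep 1 and 2, but at 129.6 in dep 0, above every control, so the last is written as the library labelled dep 0. Xist was at 27.6 FPKM in control 1, 34.2 in dep 1 and 30.3 in dep 2, and at or below 0.0274 in the other 3 libraries. The library labelled dep 0 also held the mucosal keratins Krt13 (1990 FPKM, at most 0.367 elsewhere) and Krt4 (1356 FPKM, at most 0.937 elsewhere), and listed the basal keratin Krt14 and the neutrophil gene S100a9 at 0. Their partners Krt5 and S100a8 stood at 3725 and 24456 FPKM there, and a listed 0 in this file can be a failed estimate rather than absent RNA. Skeletal muscle genes were lower in all 3 dep libraries, with summed levels of 2190 to 5276 FPKM against 23645 to 33260 in the controls, and 10 of 15 passed the test across all genes, though none did when control 0, 1 or 2 or dep 1 was left out, with a replicate block, or with the number series of the sample names as a term. No member was listed at 0 in any library.

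None of the 10 regulators differed between genotypes beyond the spread between mice. In 9 of the 10, all but Fgf18, dep 1 was the highest library and control 2 the second highest. Over all 17021 genes tested, 5.93% had this order, which was noticed in the values and carries no test; below, the shared order means these 2 places alone. The range between libraries was wide: the highest level was 168 times the lowest in Shh, 91.7 times in Lef1, 41.0 times in Msx2 and 9.64 times in Foxn1, the smallest such ratio, while on the scale of FPKM + 0.5 Fgf5 had the smallest, 3.69 times. By limma's moderated test on log2(FPKM + 0.5) with Benjamini-Hochberg adjustment, 0 of 10 members were called at an adjusted p below 0.05, against 1.38% of all genes tested, and 0 of 10 had an unadjusted p below 0.05. Of the 235 genes called over the whole table, 0 were higher in JunB dep. Adjusted p-values of the members ran from 0.722 to 0.983. No member had groups that did not overlap, against 14.8% of all genes. The standard errors of the members' differences were 0.49 to 1.52 on the log2 scale, with a median of 0.93, and the median over all genes was 0.27.

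**Figure D1:**
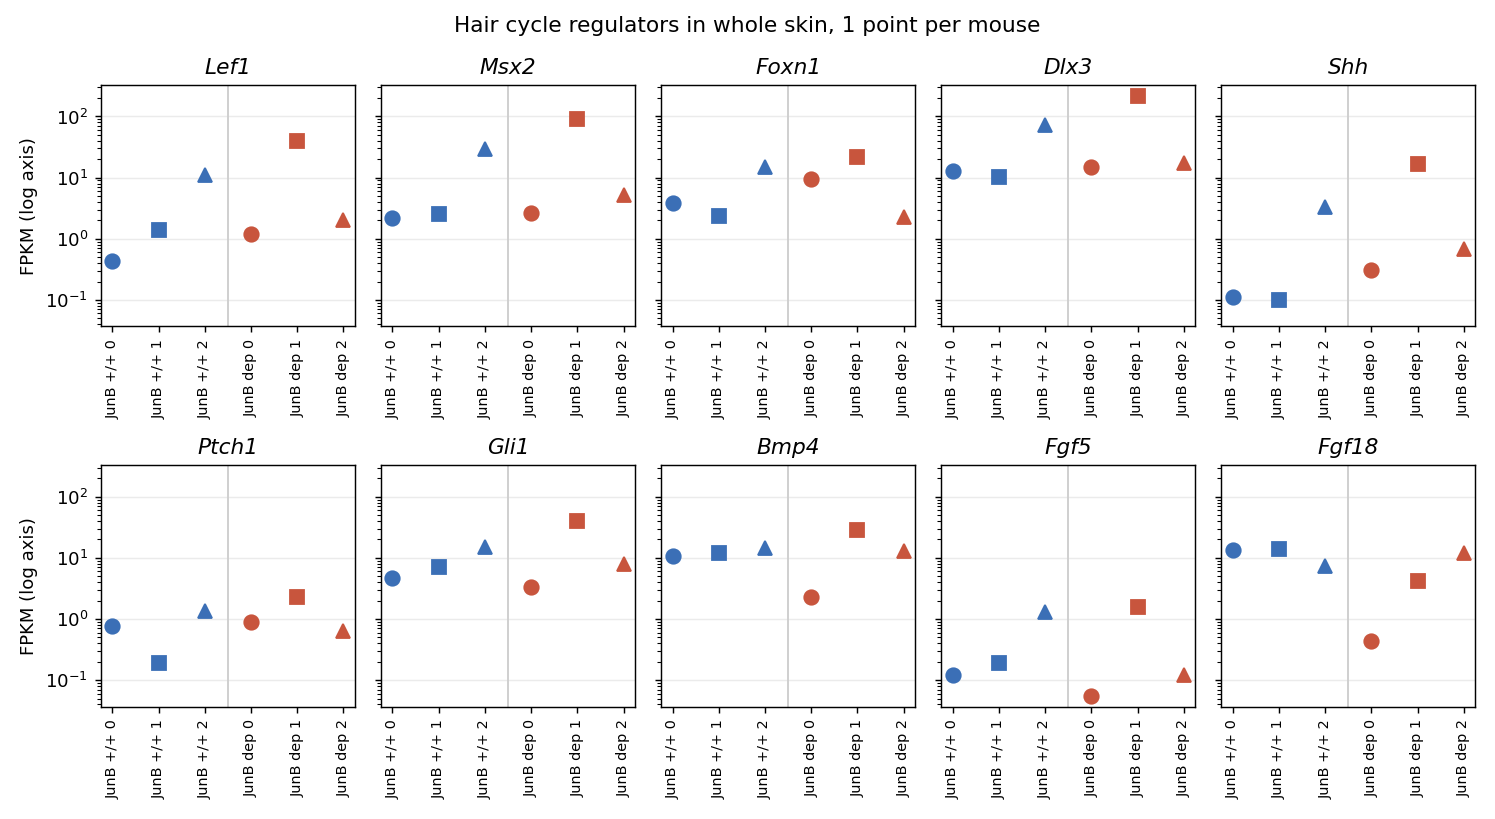
Level of each of the 10 genes in FPKM on a shared log axis, with 1 point per mouse, controls (JunB +/+) in blue and JunB dep in red. Dep 1 is highest and control 2 second in every panel but Fgf18, where the library labelled dep 0 at 0.436 FPKM and dep 1 at 4.22 FPKM are the lowest.

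The matrix and shaft transcription factors were described first. Lef1, the nuclear partner of beta-catenin (mm9, chr3:130813389-130927274, plus strand), was at 0.427, 1.42 and 10.9 FPKM in control 0, 1 and 2 and at 1.19, 39.2 and 2.02 FPKM in dep 0, 1 and 2. Control 2 stood well above the other two controls, dep 1 was 3.59 times control 2, and the groups overlapped. The log2 difference, JunB dep minus control, was 1.02 ± 1.46 (SE, n = 3 and 3, adjusted p = 0.814 by limma), with a 95% interval from -2.54 to 4.58.

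Msx2, a homeobox factor of the matrix and the differentiating shaft (chr13:53562250-53568443, minus strand), was at 2.18, 2.55 and 29.3 FPKM in the controls and at 2.62, 89.5 and 5.13 FPKM in the dep libraries. Dep 1 and control 2 again stood apart, with the other 4 libraries between 2.18 and 5.13 FPKM. The difference was 0.90 ± 1.52 on the log2 scale (SE, n = 3 and 3, adjusted p = 0.842 by limma).

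Foxn1, the factor lost in nude mice (chr11:78171079-78200060, minus strand), was at 3.90, 2.36 and 14.8 FPKM in the controls and at 9.59, 21.5 and 2.23 FPKM in the dep libraries. Here the library labelled dep 0 was the third highest, at 44.5% of dep 1, where for Lef1 and Msx2 it reached 3.04% and 2.92% of dep 1. The log2 difference of 0.55 ± 0.94 (SE, n = 3 and 3, adjusted p = 0.841 by limma) had an interval from -1.73 to 2.83.

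Dlx3, a homeobox factor of the shaft, its sheath and the upper epidermis (chr11:94981403-94986610, plus strand), had the highest level of the members per length in dep 1. It was at 12.9, 10.4 and 71.5 FPKM in the controls and at 15.0, 216.9 and 17.7 FPKM in the dep libraries. Unlike Lef1 and Shh, it stayed above 10 FPKM in every library. Its log2 difference was 0.85 ± 1.23 (SE, n = 3 and 3, adjusted p = 0.815 by limma).

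The hedgehog members are a ligand, its receptor and the effector. Shh, the ligand (chr5:28783355-28793641, minus strand), was at 0.112, 0.0994 and 3.28 FPKM in the controls and at 0.310, 16.7 and 0.681 FPKM in the dep libraries. It had the highest ratio of highest to lowest FPKM of the members, and dep 1 was 5.10 times control 2, the largest such step among the 10. The log2 difference was 1.19 ± 1.34 (SE, n = 3 and 3, adjusted p = 0.769 by limma), with an interval from -2.08 to 4.46.

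Gli1, the transcriptional effector and itself a target (chr10:126766945-126778645, minus strand), was at 4.74, 7.15 and 15.1 FPKM in the controls and at 3.33, 39.8 and 8.07 FPKM in the dep libraries. The library labelled dep 0 was the lowest of the 6. Its Shh level was above those of control 0 and 1, but these Shh levels all lay below 0.5 FPKM, so no contrast is drawn. Ptch1, the receptor that is also induced by the pathway (chr13:63610261-63674474, minus strand), was at 0.775, 0.190 and 1.33 FPKM in the controls and at 0.877, 2.26 and 0.627 FPKM in the dep libraries. Both genes shared the 2 highest libraries with Shh over a narrower range. Gli1 was above Ptch1 per length in every library, by 3.80 times in the library labelled dep 0 to 37.6 times in control 1. The log2 differences were 0.36 ± 0.90 for Gli1 and 0.47 ± 0.49 for Ptch1 (SE, n = 3 and 3, adjusted p = 0.896 and 0.751 by limma).

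Bmp4, a ligand made by the dermal papilla and the follicle epithelium (chr14:47003195-47010344, minus strand), was at 10.9, 11.9 and 14.5 FPKM in the controls and at 2.29, 28.5 and 13.2 FPKM in the dep libraries. The controls lay close together, with the library labelled dep 0 below them, dep 1 above them and dep 2 among them. The log2 difference was -0.31 ± 0.82 (SE, n = 3 and 3, adjusted p = 0.904 by limma). Without the library labelled dep 0 it was 0.63, of the other sign.

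The 2 fibroblast growth factors differed in their order of libraries. Fgf5, the anagen-ending signal (chr5:98683203-98706049, plus strand), was at 0.119, 0.192 and 1.31 FPKM in the controls and at 0.0559, 1.55 and 0.119 FPKM in the dep libraries. Dep 1 and control 2 were the only libraries above 1 FPKM, only 1.18-fold apart, and the log2 difference was -0.05 ± 0.65 (SE, n = 3 and 3, adjusted p = 0.983 by limma).

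Fgf18, known from the resting follicle (chr11:33017430-33047400, minus strand), was at 13.3, 14.1 and 7.29 FPKM in the controls and at 0.436, 4.22 and 11.97 FPKM in the dep libraries. Control 2 was the lowest control and dep 1 was below every control, whereas dep 2 lay among the controls. The difference of -1.61 ± 0.93 on the log2 scale was the largest of the members and did not pass the test (SE, n = 3 and 3, adjusted p = 0.722 by limma). Its interval ran from -3.87 to 0.65, and without the library labelled dep 0 the difference was -0.60.

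The balance of Fgf18 and Lef1 varied within both genotypes. The ratio of their FPKM was 31.2 in control 0 and 9.96 in control 1, but 0.667 in control 2. In the dep libraries it was 5.94 in dep 2, 0.108 in dep 1 and 0.367 in the library labelled dep 0. Ratios above and below 1 were thus found in both groups. The low ratio in the library labelled dep 0 came with Lef1 at 1.19 FPKM, inside the range of the controls, and with the lowest Fgf18 level of the 6 libraries.

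**Figure D2:**
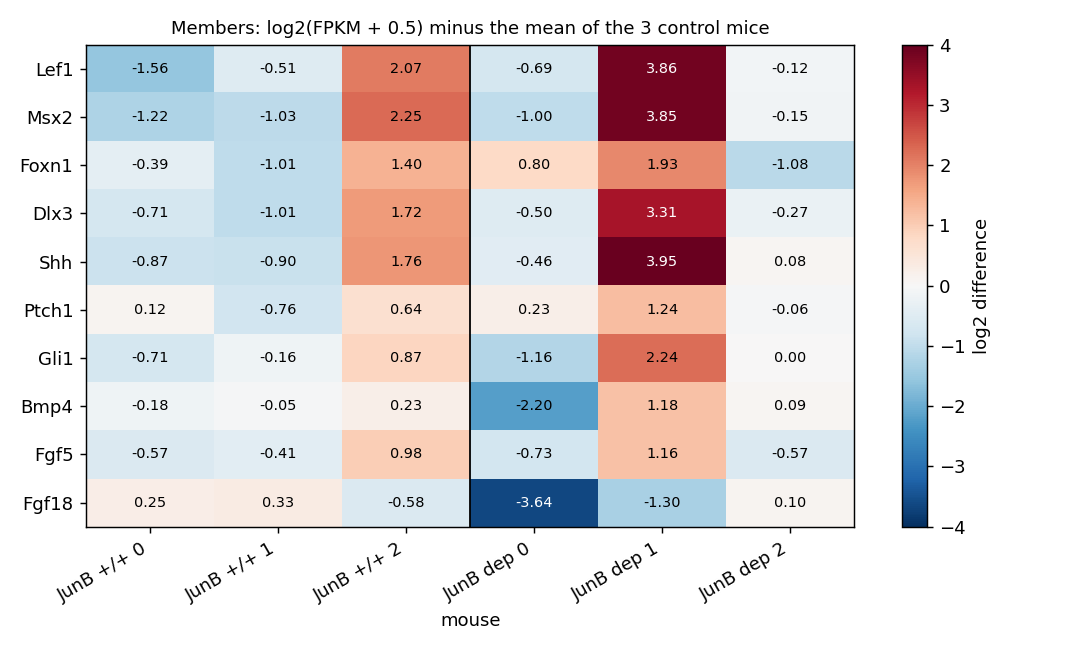
Log2(FPKM + 0.5) of each gene in each mouse minus the mean of the 3 control mice, with red above and blue below that mean. The median over the members is 2.09 in dep 1 and 1.19 in control 2, and between -0.71 and -0.09 in the other 4 libraries.

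The median of the members in dep 1 was 2.09 above the control mean on the log2 scale, and in control 2 it was 1.19 above it. In control 0 and 1 it was -0.64 in each, in the library labelled dep 0 -0.71 and in dep 2 -0.09, while the medians over all genes ran from -0.022 to 0.004. Of the log2 differences between genotypes, 7 were positive and 3 negative, with a median of 0.51, against 0.03 over all genes. This median rested on dep 1: without it the median was -0.49 and 1 of 10 members, Ptch1, was positive. Without control 2 the median was 1.02, and 0 members were called in either case.

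The sample names form a lower number series with control 0, control 1 and the library labelled dep 0, and a higher one with control 2, dep 1 and dep 2. The labels do not say what the series stand for. Within the lower series the median log2 difference of the members was 0.23, with 6 of 10 positive, and within the higher series it was -0.12, with 3 of 10 positive. The sign differed between the series in 7 of 10 members. Lef1, for example, differed by 0.34 in the lower and by -0.19 in the higher series, and Fgf18 by -3.93 and -0.02. With 2 libraries against 1 in each series, these are values with no test.

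**Figure D3:**
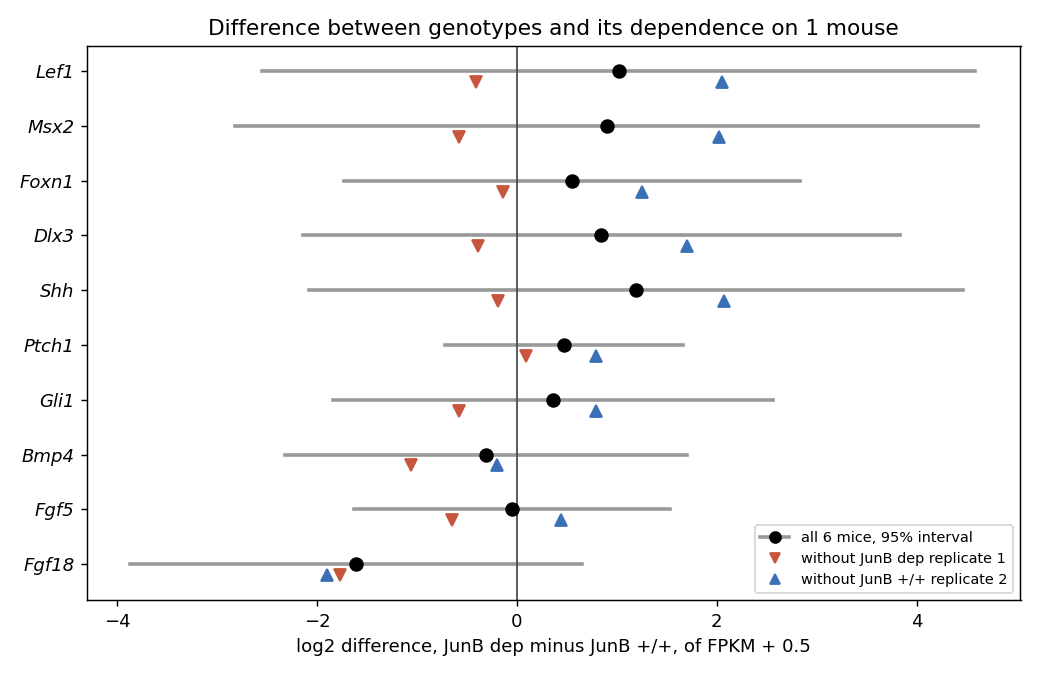
Log2 difference of each gene between JunB dep and control mice (black, with the 95% interval of limma), and the same difference without dep 1 (red) or without control 2 (blue). All 10 intervals include 0, and without dep 1 only Ptch1, at 0.09, stays above 0.

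The other genes of the pathways were read from lists. Of 16 other hedgehog genes tested, 0 were called, the median log2 difference was 0.15, and 7 had dep 1 highest and control 2 second. Smo, the signal transducer, was at 18.1, 12.2 and 24.5 FPKM in the controls and at 14.9, 32.1 and 17.8 FPKM in the dep libraries. Gas1, a co-receptor for the ligand, was at 24.1 to 31.5 FPKM in the controls and at 20.03 to 50.2 FPKM in the dep libraries, and the co-receptor Boc at 8.73 to 9.74 and 9.33 to 10.3 FPKM. Stk36, a kinase of the pathway, was the hedgehog gene without overlap, at 0.176 to 0.400 FPKM in the controls and 0.431 to 0.793 FPKM in the dep libraries, and was not called.

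Of 31 other BMP genes, 0 were called, the median log2 difference was 0.01, and 7 had the shared order. The target genes Id1, Id2 and Id3 encode inhibitors of helix-loop-helix factors. Id1 was at 42.9 to 80.8 FPKM in the controls and at 206, 108 and 72.1 FPKM in dep 0, 1 and 2. Id3 was at 71.9 to 115 FPKM in the controls and had its lowest level, 42.5 FPKM, in the library labelled dep 0, where Bmp4 was lowest too, and its highest, 181 FPKM, in dep 1. Id2 ranged from 20.2 FPKM in the library labelled dep 0 to 42.8 FPKM in dep 1.

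Of 27 other FGF genes, 0 were called, the median was 0.09, and 1 had the shared order. Fgf1, Fgf9, Fgf13 and Fgfr4 were lower in every dep library than in every control, without passing the test. These 4 of 27 are 14.8%, the same share as the 14.8% of all genes whose groups did not overlap. Fgf13, an intracellular member of the family, was at 7.14 to 11.1 FPKM in the controls and at 1.04, 3.25 and 6.00 FPKM in dep 0, 1 and 2. Fgf1, a secreted ligand, was at 7.27 to 8.88 FPKM against 2.46 to 5.57 FPKM, and the receptor Fgfr4 at 1.34 to 3.68 against 0.462 to 0.812 FPKM. Fgfr1 and Fgfr3, the more abundant receptors of the list, overlapped between groups, and Fgfbp1, a carrier of FGF ligands, was at 359 FPKM in the library labelled dep 0 and at 58.4 to 85.7 FPKM elsewhere.

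Of 25 other genes of canonical Wnt signalling, 0 were called, the median was 0.07, and 10 had dep 1 highest and control 2 second. Ccnd1, a cell cycle gene, was at 42.9 FPKM in control 2, 72.8 in dep 1 and 18.2 to 25.2 in the other 4 libraries. Sp6, a factor of skin appendages, was at 50.8 FPKM in control 2, 111 in dep 1 and 22.96 to 28.8 elsewhere. Ctnnb1, which encodes beta-catenin, was at 130 to 193 FPKM in the controls and at 257, 275 and 130 FPKM in the dep libraries. Axin1, a scaffold of the beta-catenin destruction complex, was higher in every dep library (17.8 to 20.5 FPKM) than in every control (14.5 to 17.4 FPKM), and Pygo1, a co-activator, was lower in every dep library (0.0897 to 1.05 against 1.27 to 1.33 FPKM). Neither was called.

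Of 29 other follicle transcription factors, 0 were called, the median was 0.26, and 13 had the shared order. Gata3, a factor of the inner root sheath and epidermis, was at 62.0 to 92.5 FPKM in the controls and at 12.8, 95.1 and 64.5 FPKM in the dep libraries. Hr, a co-repressor needed for hair regrowth, stayed between 82.1 and 124 FPKM. Barx2 was higher in every dep library (61.4 to 109 against 39.4 to 58.3 FPKM) and was not called.

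Genes with a library profile close to a member were found by the root mean square difference of log2(FPKM + 0.5), each gene centred on its mean over the 6 libraries, among the 13741 genes that averaged 1 FPKM or more. This is a description of 6 libraries and carries no test. The nearest gene to Dlx3 was its family member Dlx4, at a difference of 0.10, with 2.97 FPKM in control 2, 9.37 in dep 1 and 0.119 to 0.407 elsewhere; the median gene was at 1.61. Dlx2 was the nearest to Shh, at 0.23, and was at 4.76 FPKM in control 2 and 16.4 in dep 1 with 0.149 to 0.859 elsewhere. The 0.5 added to FPKM narrows the range of genes with levels near or below it, such as Dlx4, Dlx2 and Shh. Likeness of such genes holds on this scale and need not hold in FPKM. Mycn, a growth-promoting factor, was the nearest to Lef1, at 0.21, and Golga7b the nearest to Msx2, at 0.14. Hoxc13, a regulator of hair keratin genes, was among the 5 nearest to Msx2, at 32.2 FPKM in control 2, 79.1 in dep 1 and 3.31 to 4.85 elsewhere.

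The remaining members had other neighbours. Those of Foxn1 were led by the amino acid transporter gene Slc7a8 (0.31), those of Gli1 by the Notch target Heyl (0.24), those of Ptch1 by Robo1 (0.15) and those of Bmp4 by Cited4 (0.23). Fgf18 was nearest to Serpina3c (0.14), which was at 14.1 to 22.4 FPKM in the controls and at 1.31, 6.83 and 19.9 FPKM in dep 0, 1 and 2. Among the members themselves, Dlx3 and Shh were the closest pair on the log2 scale (0.26), followed by Lef1 and Msx2 (0.29). Fgf18 was 1.05 to 2.45 from the other 9. The value added to FPKM narrows the range of Shh, so this order of pairs need not hold in FPKM. In FPKM, the ratio of Shh to Dlx3 ran from 0.0087 in control 0 to 0.077 in dep 1. The highest level was 168 times the lowest in Shh and 20.8 times in Dlx3. Fgf5 varied too little on the log2 scale to enter.

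Markers of the cells that surround these regulators were read in the same libraries. Of 30 hair shaft and inner root sheath genes, 0 were called, and 20 had the shared order. Their summed level was 6678 FPKM in control 2 and 10513 in dep 1, against 63.3 and 60.1 in control 0 and 1, 584 in the library labelled dep 0 and 176 in dep 2. Krt71, a keratin of the inner root sheath, was at 0.191, 0.344 and 1318 FPKM in the controls and at 120, 2160 and 32.9 FPKM in the dep libraries. Krt25, another sheath keratin, was at 816 FPKM in control 2 and 1756 in dep 1, and at 0.0976 and 0.161 FPKM in control 0 and 1. The library labelled dep 0 and dep 2 thus lay above those 2 controls in Krt71, while Lef1 was at 1.19 and 2.02 FPKM there against 0.427 and 1.42 FPKM. Of the 30 genes, 4 were listed at 0 in the library labelled dep 0, 3 in control 0, 1 in control 1 and 0 in the other 3 libraries.

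Melanocyte genes, which follow the hair cycle in the bulb, had the shared order in 9 of 11, with summed levels of 102 FPKM in control 2, 142 in dep 1 and 19.2 to 30.1 elsewhere. The 20 proliferation genes had another order: their summed level was 615 FPKM in dep 1 and 545 in the library labelled dep 0, against 147 to 273.5 in the controls and 167 in dep 2, and 0 of 20 had control 2 second to dep 1. The log2 difference was positive in all 20, and 0 were called. Dermal papilla genes had the shared order in 4 of 17 and bulge stem cell genes in 6 of 14, with 0 called in each. Krt15, a bulge and basal keratin, was at 1117 to 2388 FPKM in the controls, 947 in dep 1, 1374 in dep 2 and 80.7 in the library labelled dep 0. The part of hair shaft, melanocyte and other cells in the levels of the members was not tested.

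Genes of the interfollicular epidermis (10), sebaceous gland (12), dermal fibroblasts (9), leukocytes and neutrophils (11) and oral mucosa (8) had the shared order in 0 of each list, and 0 were called. Leukocyte genes summed to 25451 FPKM in the library labelled dep 0, a sum led by S100a8. They summed to 1537 FPKM in control 0, 74.1 in control 1 and 57.2 in control 2. In dep 1 they summed to 45.1 FPKM, the lowest of the libraries, and in dep 2 to 178 FPKM. Oral mucosa genes summed to 3861 FPKM in the library labelled dep 0 and to 24.3 to 55.8 FPKM elsewhere. Control 2 was low for Xist and dep 1 was high, so the 2 libraries with high levels of the 9 regulators differed in this gene.

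**Figure D4:**
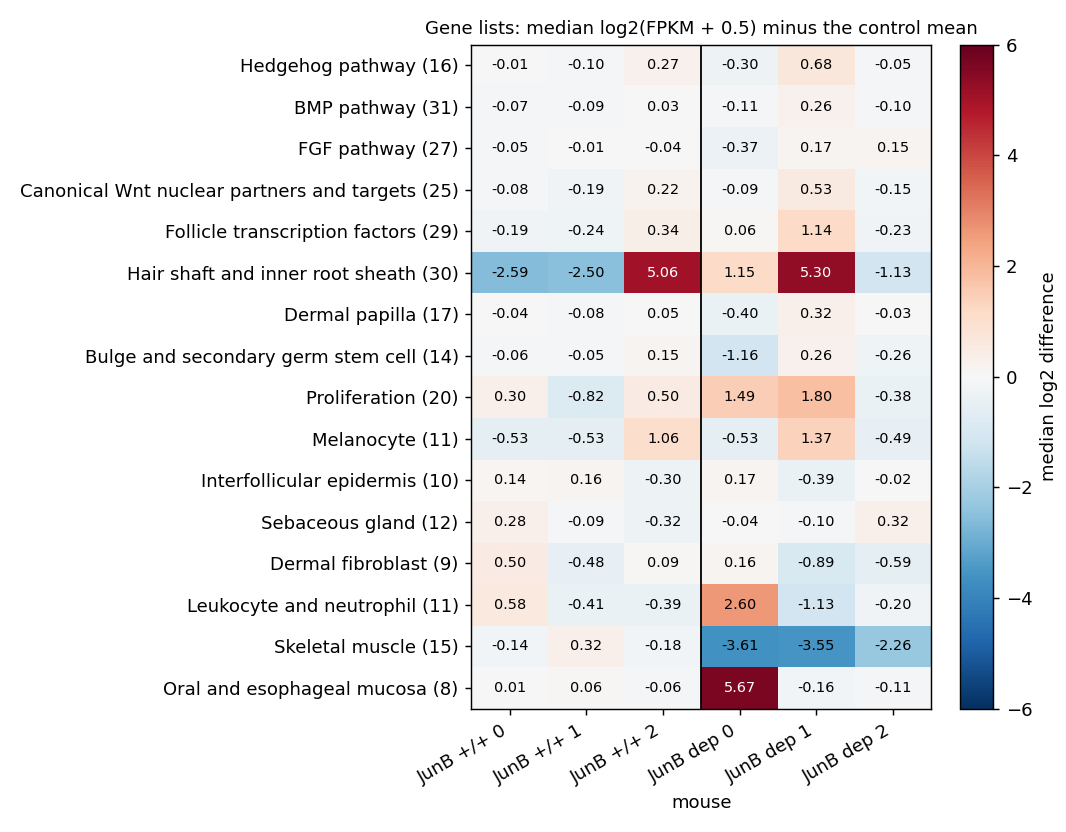
Median over each gene list (number of genes tested in brackets) of log2(FPKM + 0.5) minus the control mean, by mouse. Hair shaft and inner root sheath genes stand at 5.06 in control 2 and 5.30 in dep 1, skeletal muscle genes are below the controls in all 3 dep libraries, and mucosal genes are high in the library labelled dep 0.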

How the data were processed

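Poly(A) RNA of whole skin was sequenced from stranded libraries. FastQC, TopHat 2.0.10, Bowtie 1.0.0 and SAMtools 0.1.19 with mm9 were used by the authors, and Cufflinks is listed in the submitters' processing notes without a role. The authors deposited FPKM per gene; whether they were scaled further is not stated, and the DESeq2 test on counts was not analysed here. FPKM totals were 481078 to 630363 per library. Since no counts were used, depth is unknown and no counting interval is given.

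Here log2(FPKM + 0.5) was fitted with limma 3.58.1 (R 4.3.3, trend) for JunB dep against JunB +/+, without a block, over the 17021 genes that averaged 0.1 FPKM or more. P-values were Benjamini-Hochberg adjusted over all of them, with a threshold of 0.05. A check on simulated data was made before, and its values are not given here. A fold change on this scale understates the change of low genes. With 3 against 3, an exact permutation test cannot give a two-sided p below 0.1, so none was used. Genes named were the members; from each list the 3 highest by mean FPKM and any called; those without overlap in the pathway and transcription factor lists; the 5 likest genes of members with a 4-fold range; and Junb and Xist; some genes that meet this rule are not reported here. Members and lists were chosen with earlier results of these data known. The motifs shown were kept after a wider search.

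Alternatives were other pseudocounts, filters, scalings and limma settings, a replicate block, the number series as a term, and leaving out each library. Positions are from GENCODE vM1 on mm9. Figures were drawn with matplotlib 3.10.9.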

Additional observations from a re-analysis of the deposited data

How the results depend on the processing

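Members called stayed at 0 under all 17 alternatives, the lowest adjusted p of a member by limma being 0.21. Of 169 member values under an alternative, 156 kept their sign. The number of genes called over the whole table was less stable: 235 as reported, 0 with the replicate block, 0 with the number series as a term, and 0 to 254 when 1 library was left out. It was 0 without control 0, 1 or 2 or dep 1, 135 without the library labelled dep 0 and 254 without dep 2. Without dep 2, 1 gene of the FGF list and 1 follicle transcription factor were called, both lower, against 0 in each list as reported. The replicate numbers did not pair the libraries (correlations of deviations 0.12, -0.23 and -0.43), and the block changed no call of a member. Among all pairs of a control and a dep library, control 2 and dep 1 had the highest such correlation, 0.46. Control 1 and dep 2 followed at 0.38.

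The sign turned for Fgf5 with quantile normalization (0.042), and for Msx2 (-0.14) and Gli1 (-0.23) with the number series as a term; the cause was not tested. Leaving out 1 library gave log2 differences of -0.40 to 2.05 for Lef1, -0.58 to 2.02 for Msx2, -0.14 to 1.37 for Foxn1, -0.39 to 1.70 for Dlx3, -0.19 to 2.07 for Shh, -0.58 to 1.12 for Gli1, -1.06 to 0.63 for Bmp4 and -0.65 to 0.44 for Fgf5. For each of the first 6 the lowest value was that without dep 1. Ptch1 stayed positive (0.09 to 0.79) and Fgf18 negative (-2.47 to -0.60). The median of the members was 0.44 to 0.66 under other pseudocounts, filters, scalings and limma settings, -0.03 with the number series as a term, and -0.49 to 1.05 with 1 library left out. A fit without 1 library leaves 2 mice in a group.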
